A study of Mus musculus with 4 samples.

Results

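The genes described here encode carriers for choline, folate, thiamine, riboflavin, ascorbate, nucleosides, fatty acids and the solutes of the Slc5 family, measured by RNA-seq in endothelial cells (ECs) of the P6 (postnatal day 6) mouse retina, strain C57BL/6J. They were all protein-coding genes whose symbol places them in the solute carrier families Slc5, Slc19, Slc23, Slc27, Slc28, Slc29, Slc44, Slc46 or Slc52, and 43 of the 26834 gene rows met this rule. They made up 43 of 360 protein-coding solute carrier genes and of 17349 protein-coding genes in the table. The 4 libraries formed 1 untreated group, with no mutant, treated or other tissue sample, so that the comparisons are between genes measured in the same libraries. The labels describe retina pairs dissociated with collagenase, followed by a sort for live cells with the EC surface protein CD31 and without the leukocyte protein CD45 (CD31+/CD45-). Separate animals or litters per library are not named in them. The p-values therefore set the difference between 2 genes against the spread between these 4 samples only, which may be technical.

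These carriers bring precursors and cofactors into cells that cannot make enough of them. Choline feeds the synthesis of phosphatidylcholine, the main phospholipid of cell membranes, and folate, thiamine and riboflavin become cofactors of one-carbon, sugar and redox enzymes. Ascorbate is needed by the hydroxylases that mature collagen, equilibrative carriers move adenosine and other nucleosides down their gradients, and fatty acid transport proteins couple uptake to activation with coenzyme A. At P6 the vessels of the mouse retina are still growing outwards, and ECs that line them form the inner blood-retina barrier, across which polar nutrients depend on carriers.

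The values were normalised read counts, rounded to whole numbers by the authors, and their totals ran from 14844071 to 15017432 per library. They are not reads, so their depth is unknown and counting intervals are not given. Levels of different genes were compared per kilobase of exon (the union of all annotated exons), on the scale log2((value + 1) per exonic kilobase) where a test was made. A gene was called detected at a mean value of at least 10. All 10 EC markers (such as Pecam1 and Cdh5) were detected, and their summed values lay between 50166 and 51744 in the 4 libraries. Transcripts of other retinal cells were present too. The summed photoreceptor markers stood at 13902 in library 4, against 4809 to 6077 in the others, and all 10 of them were highest in library 4. The summed pericyte markers ran from 572 to 3777 and the summed astrocyte markers from 103 to 1171. The summed progenitor and Mueller glia markers ran from 5706 to 7354, with 6 of 10 highest and 1 lowest in library 4. The summed markers of ganglion, amacrine and bipolar neurons ran from 4643 to 6192, with 5 of 12 highest and 2 lowest in library 4. Those of pigment epithelium ran from 87 to 231, with 5 of 7 highest and 1 lowest in library 4. Erythroid markers summed to 249 to 840, highest in library 3, and microglia and leukocyte markers to 26 to 145, highest in library 1. The median marker stood at 1662 per exonic kilobase for ECs, 236 for photoreceptors and 190 for progenitors and Mueller glia. It stood at 23.5 for pericytes and 19.9 for astrocytes. For erythroid cells it was 77.5, for these neurons 11.6, for pigment epithelium 6.32 and for microglia and leukocytes 2.81. The part of these cells in the carrier values was not tested, and in bulk samples fewer cells of a type cannot be told apart from less RNA per cell.

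Of the 43 carriers, 24 were detected (55.8%), beside 74.8% of all protein-coding genes and 68.8% of the 317 other solute carrier genes. The counts of detected pathway genes given below are to be read beside the same 74.8%. Of the 24, 18 had a mean of at least 100, and 8 a mean of at least 1000. These 8 were Slc44a1, Slc23a2, Slc44a2, Slc29a1, Slc46a3, Slc52a2, Slc52a3 and Slc27a4. Together, the 43 carriers took between 0.181% and 0.187% of a library's total. The detected carriers had a median of 7.26 ± 0.20 on the log2 per-kilobase scale (SD over 4 libraries, n = 24 genes), or 158 per exonic kilobase. The median of all detected protein-coding genes was 7.78 ± 0.02 on that scale (n = 12973), and that of other detected solute carriers 7.67 ± 0.05 (n = 218). Per exonic kilobase, 11 of the 24 lay above the median detected gene, and Slc29a1 and Slc44a2 lay above the 90th percentile. The upper end of that scale was narrow, with the 99th percentile at 1570.0 and the maximum at 2854 per exonic kilobase. Whether the scale is compressed there was not tested, which limits the folds and family shares that rest on high genes.

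**Figure D1:**
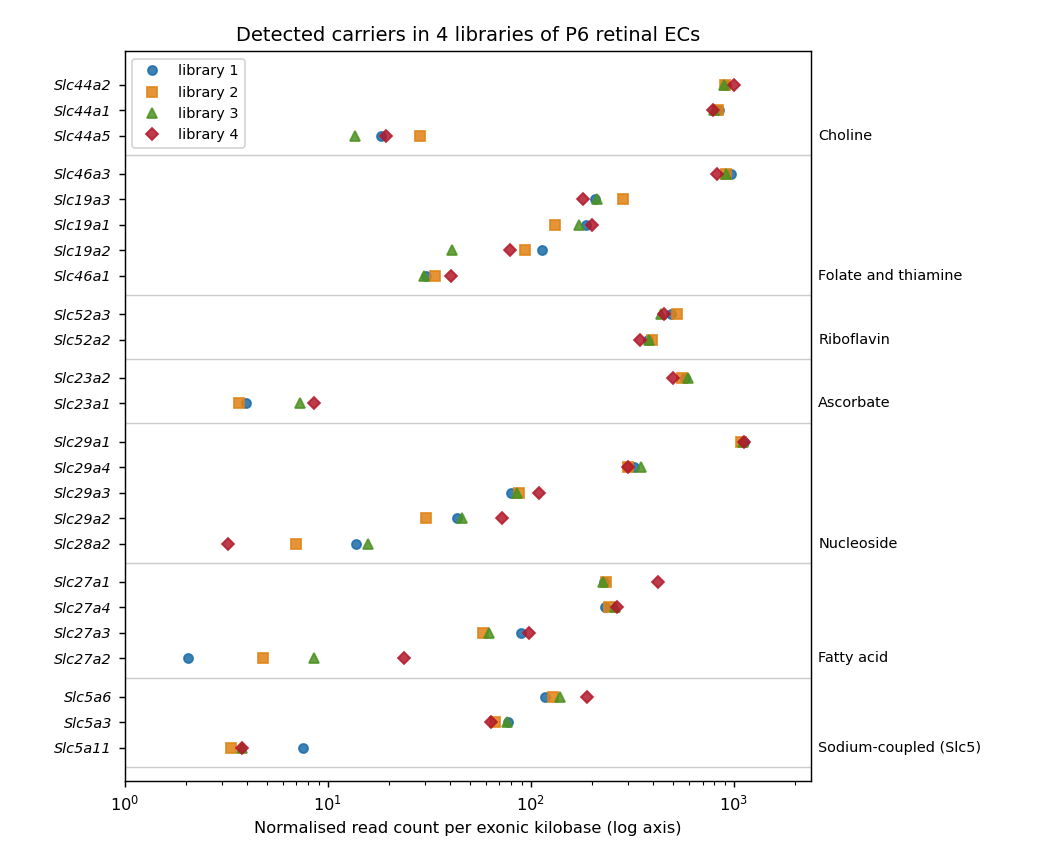
Normalised read count per exonic kilobase (x, log axis) of the 24 detected carriers in each of 4 libraries of P6 retinal ECs, grouped by substrate. Points are single libraries. Slc29a1, Slc44a2, Slc46a3 and Slc44a1 sit between 785 and 1122 in all libraries, whereas carriers below 20 per exonic kilobase are spread widely between libraries.

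Promoter sequence was compared between the detected and the undetected carriers, a choice made after their values were known. A promoter window from 250 bases before to 50 bases after the annotated start was found for 35 of the 43 genes in RefSeq (GRCm38.p6). CG dinucleotides, whose clustering marks CpG island promoters, numbered 20 in the median window of the 21 detected carriers, against 7 in that of the 14 undetected ones. At least 10 CG dinucleotides occurred in 19 of 21 detected carriers (90.5%) and in 5 of 14 undetected ones (35.7%). The same split was seen over all protein-coding genes, where 83.2% of 10349 detected and 27.8% of 3304 undetected genes had at least 10, so that it was not particular to carriers. The windows below show the ends of this range, with CG in capitals. Slc44a1, a detected choline carrier, had 43 CG dinucleotides at chr4:53440163-53440462 on the plus strand. Slc5a7, an undetected choline carrier, had 1 at chr17:54298985-54299284 on the minus strand. Slc5a5, an undetected iodide carrier, had 29 at chr8:70892708-70893007 on the minus strand and so stood against the trend.
Slc44a1: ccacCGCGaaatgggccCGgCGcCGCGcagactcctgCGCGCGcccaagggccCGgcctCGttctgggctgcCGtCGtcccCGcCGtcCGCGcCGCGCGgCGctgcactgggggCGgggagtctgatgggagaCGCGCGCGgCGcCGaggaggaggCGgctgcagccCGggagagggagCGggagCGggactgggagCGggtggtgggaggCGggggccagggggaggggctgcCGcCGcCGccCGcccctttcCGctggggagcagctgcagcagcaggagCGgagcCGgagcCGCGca
Slc5a7: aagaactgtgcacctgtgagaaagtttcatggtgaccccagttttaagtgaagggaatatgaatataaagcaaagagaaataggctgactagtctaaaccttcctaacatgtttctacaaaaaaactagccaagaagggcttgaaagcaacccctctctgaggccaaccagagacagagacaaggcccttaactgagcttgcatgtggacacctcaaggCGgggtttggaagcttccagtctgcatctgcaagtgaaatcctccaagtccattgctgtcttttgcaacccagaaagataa
Slc5a5: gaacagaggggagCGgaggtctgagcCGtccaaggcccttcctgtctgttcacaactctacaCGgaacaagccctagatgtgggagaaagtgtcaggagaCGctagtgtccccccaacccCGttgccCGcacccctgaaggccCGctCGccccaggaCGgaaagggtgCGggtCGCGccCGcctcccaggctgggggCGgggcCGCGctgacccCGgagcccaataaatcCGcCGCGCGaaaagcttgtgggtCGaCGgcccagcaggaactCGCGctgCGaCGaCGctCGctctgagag

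**Figure D2:**
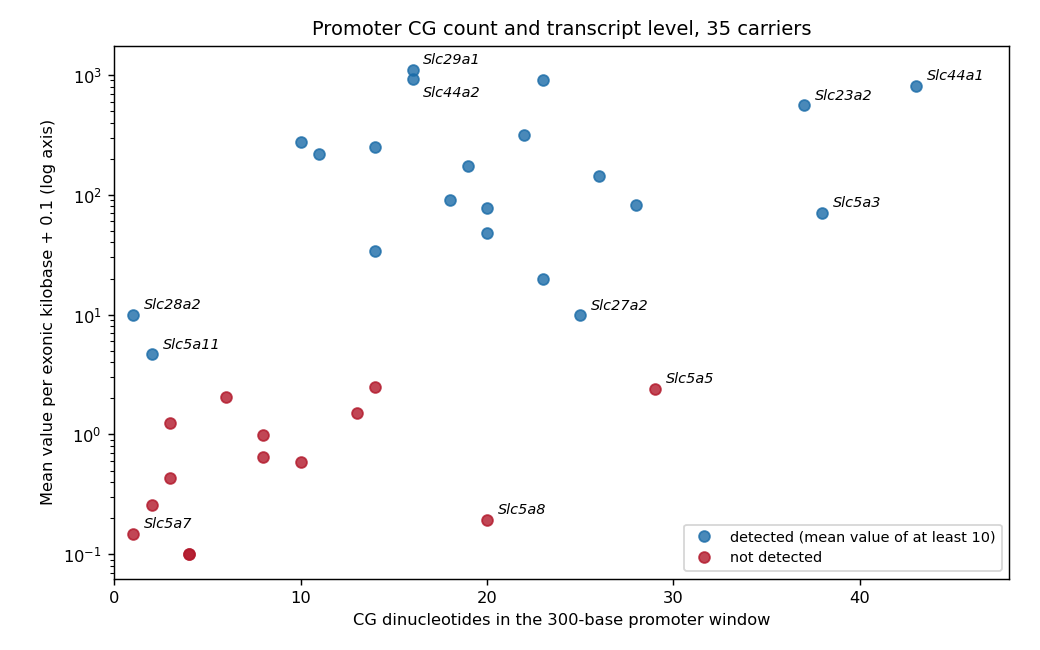
CG dinucleotides in the 300-base promoter window (x) against the mean value per exonic kilobase with a small constant added (y, log axis) for the 35 carriers with a RefSeq window. Blue points are the 21 detected and red points the 14 undetected carriers. Slc28a2 and Slc5a11, with 1 and 2 CG dinucleotides, are detected at low level, while Slc5a5 and Slc5a8, with 29 and 20, are not detected.

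The study concerns the TEAD transcription factors, and their core motif was therefore searched in the same windows. The letters GGAATG, or CATTCC on the other strand, occurred in 4 of 21 windows of detected carriers (19.0%) and in 3 of 14 windows of undetected carriers (21.4%). Over all protein-coding genes the shares were 11.7% of 10349 windows of detected genes and 15.6% of 3304 windows of undetected genes. The detected carriers with a match were Slc19a1, Slc29a3, Slc44a5 and Slc28a2, and the undetected ones Slc44a3, Slc28a3 and Slc5a4b. A match of 6 letters in a window of this size is a description and not a site.

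Choline carriers of the Slc44 and Slc5 families were led by both widely expressed choline transporter-like proteins. Slc44a1 (chr4:53440413-53622478, plus strand), which encodes CTL1, stood at 5605, 5566, 5294 and 5241 in libraries 1 to 4. This was the highest value as deposited among the 43 carriers. Slc44a2 (chr9:21320698-21355028, plus strand), which encodes the related CTL2, stood at 3302, 3252, 3226 and 3608. All libraries were high for both genes, and as deposited their ranges did not overlap. Per exonic kilobase, Slc44a1 averaged 813 ± 27.8 and Slc44a2 926 ± 48.9 (SD, n = 4), which put them at the 87.1 and 90.5 percentiles of detected protein-coding genes. The log2 difference of Slc44a1 minus Slc44a2 was -0.19 ± 0.11, with Slc44a1 lower in 4 of 4 libraries (p = 0.0286 in an exact permutation test, two-sided; adjusted p = 0.0308 over 14 pairs). This test exchanges values between genes without regard to the library. An exact sign-flip test of the within-library differences, added after the data were seen, cannot give a p below 0.125 with 4 libraries, so that no pair passed it (adjusted p = 0.135 in 13 pairs and 1.00 for Slc27a4 and Slc27a1). The order of Slc44a1 and Slc44a2 turned with the length used, since the same difference was 0.36 by the longest transcript and 0.67 by the longest coding sequence. Slc44a1 shares 310 exonic bases, 4.64% of its length, with the antisense gene 1700060J05Rik, which had a mean of 15.5. Whether the counting used strand is not given in the sources used here.

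The other choline carriers of the Slc44 and Slc5 families were low. Slc44a5 averaged 81.5 ± 25.1 (SD, n = 4), with 116 in library 2 and 56 to 79 in the others. Slc44a3 reached at most 10 and Slc44a4 at most 11 in any library. Slc5a7, the high-affinity choline carrier of cholinergic neurons, was listed at 0 in 3 libraries and at 1 in library 2. Slc44a2 took 52.5% ± 1.98 and Slc44a1 46.1% ± 1.77 of the summed level of the Slc44 family per exonic kilobase. By the longest coding sequence the shares turned, with 38.1% ± 1.84 for Slc44a2 and 60.8% ± 1.72 for Slc44a1. Of 15 genes listed for choline use and phospholipid synthesis, 13 were detected. The highest per exonic kilobase were Mfsd2a at 1838 ± 30.4, a lysophosphatidylcholine carrier of barrier ECs, Flvcr2 at 1214 ± 24.9, a choline carrier of brain vessels, and Pcyt2 at 903 ± 51.9, which acts in the making of phosphatidylethanolamine. Etnk2, an ethanolamine kinase, and Chdh, which oxidises choline to betaine, were not detected, each with a mean of 8.75.

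Among nucleoside carriers the equilibrative family dominated and the sodium-driven concentrative family was almost absent. Slc29a1 (chr17:45585200-45599606, minus strand), which encodes ENT1, the main equilibrative carrier of adenosine, stood at 2980, 2865, 2927 and 2972 in libraries 1 to 4. The 4 libraries differed little, with an SD of 1.80% of the mean, the lowest among the 8 carriers with a mean of at least 1000, where the highest was 8.33%. It averaged 1105 ± 19.9 per exonic kilobase, above the other 42 carriers and at the 94.1 percentile of detected protein-coding genes. Its exons share 275 bases, 10.4% of their length, with the antisense gene Gm17080, which had a mean value of 5.75. Slc29a4, which encodes the plasma membrane monoamine carrier PMAT and also moves adenosine, stood at 898, 839, 974 and 837. Slc29a3, a nucleoside carrier of lysosomes, stood at 416, 459, 447 and 577. Slc29a2, which encodes ENT2, stood at 113, 80, 120 and 188. Slc29a3 and Slc29a2 were highest in library 4.

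Slc29a1 made up 70.8% ± 1.20 of the summed level of its family per exonic kilobase, Slc29a4 20.4% ± 1.37, Slc29a3 5.80% ± 0.789 and Slc29a2 3.04% ± 1.03 (SD, n = 4). By the longest coding sequence the shares were 68.4% ± 1.41, 18.0% ± 1.33, 10.7% ± 1.37 and 2.92% ± 0.967 in the same order. Slc29a1 lay 12.2-fold above Slc29a3 per exonic kilobase (log2 difference 3.62 ± 0.20) and 23.2-fold above Slc29a2 (4.59 ± 0.48), higher in 4 of 4 libraries in both pairs (exact permutation test, p = 0.0286, adjusted p = 0.0308 each). The log2 difference from Slc29a3 was smaller by the longest coding sequence, at 2.68, and as deposited, at 2.64, a fold of 6.18. Of the Slc28 family, Slc28a2 (concentrative carrier CNT2) stood at 55, 28, 63 and 13, lowest in library 4, and the mouse genome holds a near-identical copy of it, so its reads could have been split. Slc28a3 reached at most 6, and Slc28a1 was listed at 0 in all libraries. Of 18 genes found for nucleoside salvage and adenosine, 17 were detected. The purine salvage enzymes Hprt at 1525 ± 42.0 and Aprt at 1122 ± 32.4, and Entpd1 at 936 ± 42.5, the surface enzyme CD39 that degrades extracellular ATP, were the highest per exonic kilobase. The adenosine receptor Adora2b was not detected, with a mean of 4.75. Adora1, named here after its values were seen, stood at 132, 0, 7 and 17 in libraries 1 to 4. It counted as detected, but its mean of 39.0 rested mainly on library 1.

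Folate and thiamine carriers of the Slc19 family were all detected. Slc19a1, the reduced folate carrier, stood at 733, 516, 678 and 785 in libraries 1 to 4. Slc19a3, which encodes the thiamine carrier ThTr2, stood at 614, 844, 632 and 534, and Slc19a2, which encodes ThTr1, at 403, 335, 146 and 281. Slc19a2 was low in library 3, where it lay 1.20 below the mean of the others on the log2 scale. Per exonic kilobase, Slc19a3 averaged 221 ± 44.5, Slc19a1 173 ± 29.8 and Slc19a2 81.6 ± 30.5 (SD, n = 4). The libraries of Slc19a3 and Slc19a1 overlapped. The difference of Slc19a2 minus Slc19a3 was -1.51 ± 0.65 on the log2 per-kilobase scale, and that of Slc19a1 minus Slc19a2 was 1.16 ± 0.71, each in the same direction in 4 of 4 libraries (exact permutation test, p = 0.0286, adjusted p = 0.0308 each). These were the largest SDs among the 14 pairs.

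The proton-coupled folate carrier gene Slc46a1 was low, at 60, 67, 59 and 80. Slc19a1 lay 5.16-fold above it per exonic kilobase (log2 difference 2.34 ± 0.30, higher in 4 of 4 libraries; exact permutation test, p = 0.0286, adjusted p = 0.0308). That log2 difference was 3.17 by the longest coding sequence and 3.32 as deposited, a fold of 10.2. Slc46a3, a relative of Slc46a1 whose protein lies in the lysosomal membrane, was instead among the highest carriers. Slc46a3 (chr5:147878437-147894815, minus strand) stood at 2366, 2223, 2230 and 2022, or 907 ± 58.1 per exonic kilobase. It lay 27.0-fold above Slc46a1 (log2 difference 4.74 ± 0.29, higher in 4 of 4 libraries; exact permutation test, p = 0.0286, adjusted p = 0.0308) and made up 96.3% ± 0.820 of its family. Slc46a2 reached at most 6. Of 9 genes found for folate use, 8 were detected, led by Mthfd1 at 580.0 ± 25.3, Tyms at 511 ± 27.4 and Ggh at 510.3 ± 43.2 per exonic kilobase, which act in one-carbon transfer, thymidylate synthesis and folate deconjugation. The folate receptor Folr1 was not detected, with a mean of 1.00. Tkt (transketolase), an enzyme that uses thiamine pyrophosphate, stood at 824 ± 23.7 per exonic kilobase.

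Both riboflavin carriers of the family were present. Slc52a2 (chr15:76538832-76544608, plus strand), which encodes RFVT2, stood at 1994, 2079, 2024 and 1820 in libraries 1 to 4. Slc52a3 (chr2:151996511-152009258, plus strand), which encodes RFVT3, stood at 1357, 1454, 1212 and 1248. As deposited, Slc52a2 was above Slc52a3 in every library. Per exonic kilobase the order was the other way, with Slc52a2 at 374 ± 21.1 and Slc52a3 at 476 ± 39.7 (log2 difference -0.35 ± 0.10, Slc52a2 lower in 4 of 4 libraries; exact permutation test, p = 0.0286, adjusted p = 0.0308). By the longest coding sequence Slc52a2 was again the higher gene, by 0.62. Both genes of riboflavin use were detected, Rfk (riboflavin kinase) at 816 ± 39.3 and Flad1 (FAD synthase) at 179.7 ± 23.2 per exonic kilobase.

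Transcripts of the Slc23 family came almost wholly from 1 gene, a carrier of ascorbate. Slc23a2 (chr2:132052496-132145108, minus strand), which encodes SVCT2, stood at 3666, 3534, 3798 and 3189 in libraries 1 to 4, or 557 ± 41.1 per exonic kilobase. Slc23a1, the SVCT1 gene known from kidney and gut epithelia, averaged 17.8 ± 7.41 as deposited. Slc23a2 lay 95.0-fold above Slc23a1 per exonic kilobase (log2 difference 6.58 ± 0.64, higher in 4 of 4 libraries; exact permutation test, p = 0.0286, adjusted p = 0.0308), and made up 98.4% ± 0.365 of its family. The log2 difference between both genes was 7.55 by the longest coding sequence and 7.65 as deposited, a fold of 199.8. Per exonic kilobase with 5 added to each value in place of 1, it was 6.27. Slc23a3 reached at most 8 and Slc23a4, a nucleobase carrier in rat, at most 6. Of 9 genes of ascorbate use, 8 were detected. P4hb at 1559.9 ± 22.8 and Plod1 at 1405 ± 23.8, which act in proline and lysine hydroxylation of collagen, and Gsto1 at 858 ± 48.9, a dehydroascorbate reductase, were the highest per exonic kilobase. Gsto2 was not detected, with a mean of 5.75.

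Of the fatty acid transport proteins, Slc27a1 and Slc27a4 stood near the middle of the detected protein-coding genes per exonic kilobase, at the 56.1 and 53.3 percentiles, and Slc27a3 lower, at the 29.5 percentile. Slc27a1, which encodes FATP1, stood at 651, 668, 640 and 1195 in libraries 1 to 4, and Slc27a4, which encodes FATP4, at 943, 978, 1052 and 1072. Slc27a1 was high in library 4 alone, by 0.87 on the log2 scale, while the other 3 libraries lay close together. Slc27a3 stood at 201, 131, 141 and 221. Per exonic kilobase, Slc27a1 averaged 278 ± 95.5, Slc27a4 249 ± 15.0 and Slc27a3 76.8 ± 19.6 (SD, n = 4). The difference of Slc27a4 minus Slc27a1 was -0.10 ± 0.39 on the log2 per-kilobase scale and ran from -0.67 to 0.20 between libraries, with Slc27a4 higher in 3 of 4 (exact permutation test, p = 0.971, adjusted p = 0.971). Without library 4 this difference was 0.09. It was 0.42 by the longest coding sequence. The difference of Slc27a3 minus Slc27a4 was -1.73 ± 0.37 on the log2 per-kilobase scale and that of Slc27a3 minus Slc27a1 was -1.83 ± 0.33, with Slc27a3 lower in 4 of 4 libraries in both pairs (exact permutation test, p = 0.0286, adjusted p = 0.0308 each).

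The difference of Slc27a3 minus Slc27a4 was -2.62 by the longest coding sequence and -2.57 as deposited. Slc27a2, a very long chain acyl-CoA synthetase prominent in liver and kidney, stood at 6, 14, 25 and 69, so that its mean of 28.5 rested mainly on library 4. Slc27a5, a liver enzyme of bile acid conjugation, reached at most 4, and Slc27a6 at most 11. Of 15 genes of fatty acid uptake and activation, 12 were detected, beside 74.8% of all protein-coding genes. Cpt1a, which admits fatty acids to mitochondria, stood at 1057 ± 18.8 per exonic kilobase, and the acyl-CoA synthetases Acsl5 and Acsl3 at 510.4 ± 23.5 and 509.9 ± 36.1. Fabp3, Fabp4 and Pparg, a set of lipid-binding and lipid-responsive genes, were not detected, with means of 1.25, 2.75 and 9.50. Cd36, a fatty acid receptor of many capillary beds named here after its values were seen, stood at 8, 2, 45 and 0. It counted as detected, but its mean of 13.75 rested mainly on library 3.

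Of the Slc5 family, which couples uptake to sodium, 3 of 12 genes other than Slc5a7 were detected. Slc5a6, the carrier of biotin and pantothenate, stood at 450, 493, 531 and 718 in libraries 1 to 4, highest in library 4. Slc5a3, the myo-inositol carrier, stood at 841, 730, 834 and 695. Per exonic kilobase, Slc5a6 averaged 143 ± 30.9 and Slc5a3, which has 10913 exonic bases, 71.0 ± 6.75. Slc5a6 was 2.02-fold above Slc5a3 on that scale (log2 difference 1.00 ± 0.40, higher in 4 of 4 libraries; exact permutation test, p = 0.0286, adjusted p = 0.0308). The order turned without that length, since the difference was -0.34 by the longest coding sequence and -0.52 as deposited. Slc5a6 shares 145 exonic bases, 3.80% of its length, with the opposite gene Atraid, which had a mean of 1224.25. Slc5a3 shares 159, 1.46% of its length, with Mrps6 on the same strand, which had a mean of 432.25. Part of the values of Slc5a6 and Slc5a3 could belong to these neighbours. Slc5a11, a further myo-inositol carrier, stood at 18, 8, 9 and 9. Slc5a3 lay 15.5-fold above it per exonic kilobase (log2 difference 3.89 ± 0.42, higher in 4 of 4 libraries; exact permutation test, p = 0.0286, adjusted p = 0.0308). The log2 difference was 5.99 by the longest coding sequence and 6.08 as deposited, a fold of 70.5.

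All 9 genes of biotin, pantothenate and coenzyme A use were detected, led by Btd (biotinidase) at 531 ± 15.7, Coasy (coenzyme A synthase) at 443 ± 23.2 and the pantothenate kinase family gene Pank4 at 443 ± 69.9 per exonic kilobase. Of 9 genes of inositol use and osmotic response, 8 were detected. Cdipt, which makes phosphatidylinositol, stood at 1252 ± 35.3, the taurine carrier Slc6a6 at 983 ± 39.9 and Isyna1, which makes inositol from glucose 6-phosphate, at 969 ± 120 per exonic kilobase. Miox, which degrades inositol in kidney, was not detected, with a mean of 0.25. All 7 genes found for other vitamin and heme uptake were detected, led by Tcn2 at 1110.1 ± 45.1 and Cd320 at 718 ± 30.3, the cobalamin carrier protein and its receptor, and Stra6 at 608 ± 31.9, the retinol receptor.

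The 19 undetected carriers included the glucose carriers of kidney and gut. Slc5a1 (SGLT1) reached at most 7 and Slc5a2 (SGLT2) at most 13, and Slc5a2 shares 597 exonic bases, 26.2% of its length, with the opposite gene BC017158, which had a mean of 780.0. Slc5a5, the iodide carrier of thyroid, stood at 9, 0, 0 and 18, and its 18 was the highest value in any library among the undetected carriers. Slc5a9 and Slc5a10, sugar carriers of kidney and gut, reached at most 9 and 2, and Slc5a8, a monocarboxylate carrier, reached at most 1. Slc5a4b reached 2, and Slc5a4a, Slc5a12 and Slc28a1 were listed at 0 in all libraries. Slc5a4a and Slc5a4b are close copies of each other. Values this low carry little weight, because some occurred more often than their neighbours. In library 1, 560 genes stood at 9, against 308 at 8 and 212 at 10, and 728, 751 and 741 genes stood at 6 in libraries 2, 3 and 4. Such values also occurred above the detection minimum. In library 4, 204 genes stood at 18, against 98 at 17 and 108 at 19. In libraries 2 and 3, 181 and 179 genes stood at 19. The 9 of Slc5a5 in library 1 and its 18 in library 4 were at such values.

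Across the 14 pairs compared, 13 did not overlap between the 4 libraries and passed an adjusted p of 0.05. Of all pairs of detected protein-coding genes, 90.1% likewise did not overlap, so that most pairs of genes differ in this way. In the order of levels per exonic kilobase, 5 of 23 neighbouring pairs of detected carriers did not overlap between libraries. By exon union, these were Slc29a1 over Slc44a2, Slc44a1 over Slc23a2, Slc52a3 over Slc52a2, Slc5a6 over Slc29a3 and Slc46a1 over Slc44a5. All 5 kept their order without overlap by the longest transcript, but only 2 did by the longest coding sequence (Slc29a1 over Slc44a2 and Slc44a1 over Slc23a2) and only Slc44a1 over Slc23a2 as deposited. The other 18 neighbours overlapped. Neighbours in a sorted order are the closest pairs, so overlap between them is favoured in advance. The share of neighbouring pairs without overlap was not counted over other genes, and the 90.1% is over all pairs. Slc44a2, Slc46a3 and Slc44a1 formed 1 chain of overlapping neighbours, and the 7 genes from Slc52a2 down to Slc5a6 another.

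**Figure D3:**
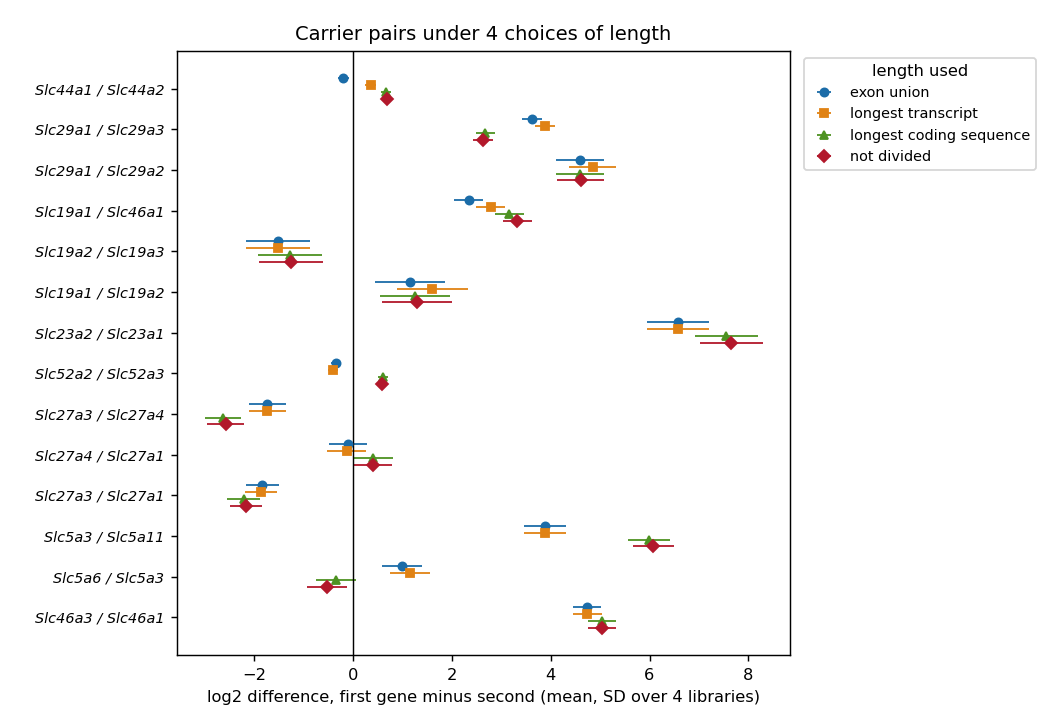
Log2 difference of the first gene minus the second (x, mean and SD over 4 libraries) for 14 pairs of carriers, with 4 choices of the length that values are divided by. Slc44a1 over Slc44a2, Slc52a2 over Slc52a3, Slc27a4 over Slc27a1 and Slc5a6 over Slc5a3 lie on both sides of 0 depending on the length. The other 10 pairs keep their side under each length.

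Variation between libraries was then described for each carrier by the distance of 1 library from the mean of the other 3 on the log2(value + 1) scale. In 8 of 24 detected carriers (33.3%) a library stood at least 1.5-fold apart, beside 21.8% of all detected protein-coding genes. The library apart was library 4 in 5 of the 24 (20.8%), beside 9.66% of all detected protein-coding genes. Among genes with a library apart, it was library 4 in 5 of 8 carriers (62.5%), beside 44.2% of such protein-coding genes. It was upward in 4 of the 24 (16.7%), Slc27a1, Slc29a2, Slc27a2 and Slc23a1, beside 6.51% of all detected protein-coding genes, and downward in Slc28a2. Slc19a2 was low in library 3, Slc44a5 high in library 2 and Slc5a11 high in library 1, beside 4.73%, 4.13% and 3.32% of detected protein-coding genes with that library apart in either direction. Counted without a minimum distance, 11 of the 24 carriers were highest in library 4, beside 31.1% of detected protein-coding genes, and 8 were lowest in it, beside 34.5%. Only Slc27a1, Slc19a2 and Slc29a2 of the 8 had a mean of at least 100. The share of protein-coding genes with a library apart was not counted at that minimum. At a minimum mean of 50 it was 12.3%, beside 4 of 20 carriers. Library 4 also had the high photoreceptor marker sum of 13902, against 4809 to 6077, and a pericyte marker sum of 3777, against 572 to 2238. Its progenitor and Mueller glia marker sum was 7354, against 5706 to 6703. Its sum for ganglion, amacrine and bipolar neurons was 6192, against 4643 to 4892, and that for pigment epithelium 231, against 87 to 126. The part of these cells in the library 4 values was not tested. Without library 4, a library stood apart in 6 of the 24 detected carriers, beside 15.8% of all detected protein-coding genes.

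**Figure D4:**
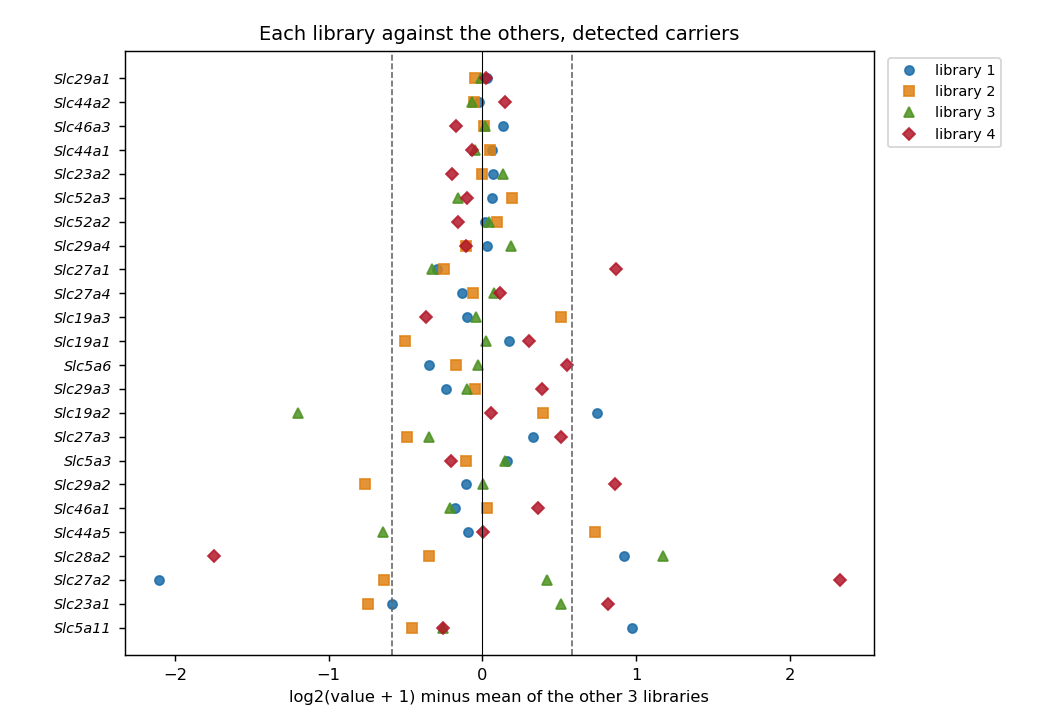
Each library's log2(value + 1) minus the mean of the other 3 libraries (x) for the 24 detected carriers, ordered by level per exonic kilobase. Dashed lines mark a 1.5-fold distance. The 8 highest carriers stay within the lines in all libraries, Slc27a1 lies at 0.87 in library 4, and Slc27a2 at 2.32.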

How the data were processed

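RNA-seq values of 4 libraries (1 group, from the labels) were used as deposited. The authors deposited normalised read counts rounded to whole numbers, treated here as a score; the normalisation, aligner, genome build, strand use and duplicate handling are not given in the sources used here (the submitters' processing notes list only FastQC). The labels' RNA isolation text names human umbilical vein ECs and may not describe these samples. Libraries were stranded, poly(A)-selected and single-end, per the labels. Reads were not recoverable, so no count model was fitted. Of 26778 genes found in GENCODE M21, 26553 had equal positions, which identifies GRCm38. Where a symbol had several rows, that of highest mean was used. Exonic length was the exon union over basic GENCODE M21 transcripts. A pseudocount of 1 was used, which understates differences of low genes. Gene pairs were tested by exact permutation, two-sided (70 splits, smallest p 0.0286) with Benjamini-Hochberg adjustment over 14 pairs. Carriers with a mean of at least 100 were named with each value, other detected carriers with their mean or values, and of each pathway list the 3 highest per exonic kilobase and the undetected genes, except that some results on thiamine use are not reported here. The members and lists were chosen with earlier results of these data known. An exact sign-flip test of within-library differences was added after the data were seen. Alternatives changed the pseudocount, length, scaling, detection minimum and libraries. Scripts used Python 3.11.15, numpy 2.4.6, pandas 2.3.3, scipy 1.17.1 and matplotlib 3.10.9 and were tested on simulated data. The study's own method text on RNA-seq is written for human ECs.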

Additional observations from a re-analysis of the deposited data

Results flagged for a closer look

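In 2 of the 24 detected carriers a single library lay far from the other 3 by Dixon's criterion, where a rate of 1 in 20 gives about 1.2 of 24. The share of all detected protein-coding genes flagged by this criterion was not counted, so the 2 are only listed. Slc27a1, which encodes the fatty acid transport protein FATP1, stood at 1195 in library 4, against 640 to 668 in the others. Slc5a11, a myo-inositol carrier, stood at 18 in library 1, against 8 to 9 in the others, values so low that they carry little weight.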

How the results depend on the processing

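The direction of 4 pairs depended on the length. Slc44a1 minus Slc44a2 was 0.36 by the longest transcript, 0.67 by the longest coding sequence and 0.70 undivided, in place of -0.19. Slc52a2 minus Slc52a3 was 0.62 by coding length and 0.59 undivided, in place of -0.35. Slc27a4 minus Slc27a1 was 0.42 and 0.41, in place of -0.10, and Slc5a6 minus Slc5a3 was -0.34 and -0.52, in place of 1.00. The length alone was changed there, and which length fits the transcripts in these cells was not tested. The other pairs kept their direction under every alternative run, though 5 of them moved by over 1.5 times with the length. In the alternatives to pseudocount, length, scaling and libraries, between 12 and 13 pairs did not overlap. Without 1 library, 3 values against 3 cannot reach a p below 0.10, so 13 is there a count of pairs without overlap. The median log2 level of detected carriers was 8.50 by coding length, 9.32 undivided, 5.26 at a minimum mean of 1, 7.82 at 50 and 2.92 with no minimum. Over protein-coding genes under the same settings it was 8.99, 9.51, 7.23, 8.13 and 6.61. The carrier median was 7.18 to 7.35 without 1 library. Detected carriers numbered 36 at a minimum mean of 1 (83.7%, beside 87.8% of protein-coding genes) and 20 at 50 (46.5%, beside 65.2%). The gap to protein-coding genes was thus smaller at the low minimum. Without 1 library, 23 to 24 carriers were detected. At 2-fold, a library stood apart in 3 of the 24 detected carriers, about the same share as in all detected protein-coding genes (12.6%). The higher share of carriers at 1.5-fold was therefore not seen at 2-fold. At a minimum mean of 50 a library stood apart in 4 of 20 carriers, beside 12.3% of protein-coding genes. Without 1 library it did so in 6 to 9 of 23 to 24 carriers, beside 15.8% to 21.1%. Rescaling moved libraries by factors of 0.987 to 1.007 and changed no call. With the library as a replicate block (a sign-flip test added after the data were seen), 0 pairs passed, since 4 libraries cannot give a p below 0.125 there. The unknown depth limits all statements on low values.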
